A study of Mus musculus with 6 samples.

Results

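Among 104845 accessible regions of splenic Tregs, 534 were distal regions that hold a full cAMP response element (CRE). A region is the union of overlapping peaks of both peak lists, and it counts as distal when it does not reach within 1 kb of the start site of a protein-coding gene. A full CRE is the 8-base palindrome TGACGTCA, found as an exact match in the mouse genome GRCm38. Of all 85264 distal regions, these were 0.626% (95% Wilson interval 0.576 to 0.682). A further 613 regions with a CRE lay at promoters, 3.13% (2.90 to 3.38) of the promoter regions. Neither the level of a region in either group nor the place of the CRE within it was used to choose the members.

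The CRE is the DNA element bound by dimers of CREB and of its relatives CREM and ATF1, which belong to the leucine zipper transcription factors. CREB is phosphorylated by protein kinase A when cAMP rises, and by kinases downstream of the T cell receptor, and then recruits the coactivators CBP and p300. In Tregs, a CRE lies in an intronic enhancer of Foxp3, the lineage-defining transcription factor, at an element that keeps Foxp3 expression stable when its CpG sites are demethylated.

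The regions come from ATAC-seq, in which a transposase inserts adapters into accessible DNA, of splenic Tregs from mice 6 to 12 weeks old. The labels name 3 libraries WT and 3 libraries Foxp3_KO. By the series design and the paper, these are CREB fl/fl mice, which carry floxed CREB alleles without Cre, and Foxp3cre CREB fl/fl mice, in which Cre from the Foxp3 locus deletes CREB in cells that express Foxp3. They are called WT and KO here. The data used here are 1 peak list per group, so no difference between mice could be tested and every interval given covers counting error only. Cells of a library were profiled in bulk, so that fewer cells of a type and less accessibility per cell cannot be told apart. Peaks give no level of CREB itself, and the deletion was not checked here. Peaks lay at the promoters of 6 of 6 Treg and CD4 T cell markers in both lists (Foxp3, Il2ra, Ctla4, Ikzf2, Cd3e and Cd4). Of B cell markers, Ms4a1 had a promoter peak of 26 fragments in WT and 38 in KO, and Cd79a and Pax5 had none. Peaks lay at 2 of 4 myeloid, 2 of 4 CD8 and NK cell and 1 of 3 erythroid marker promoters. In WT and KO they had 160 and 91 fragments at Cd14, 41 and 24 at Itgam and 167 and 89 at Cd8b1. Klrb1c had 49 and 38 and Klf1 564 and 383, where the Foxp3 promoter had 166 and 125, so some were as strong as Foxp3. The promoters of Lyz2, Csf1r, Cd8a, Ncr1, Gata1 and Hba-a1 had none in either list.

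The sequences below are GRCm38, plus strand, 5′ to 3′, with the CRE in capitals. Regions are named by the nearest protein-coding start site. The first set holds the 3 regions called higher in KO by the rule given further below.
Il1rl1 (chr1:40393308-40393415): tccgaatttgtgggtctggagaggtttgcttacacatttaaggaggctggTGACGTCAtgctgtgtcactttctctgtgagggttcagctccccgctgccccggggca
Nefl (chr14:68048542-68048599): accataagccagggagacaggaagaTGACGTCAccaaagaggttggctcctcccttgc
Mtap (chr4:89008747-89008804): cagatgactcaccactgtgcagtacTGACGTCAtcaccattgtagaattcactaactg

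The second set holds regions with a low KO level relative to WT, 5 of the lowest among them, and ends with the members near the naive T cell genes S1pr1 and Foxp1.
Ncf1 (chr5:134253647-134253704): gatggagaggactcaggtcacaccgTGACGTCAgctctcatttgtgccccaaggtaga
Usp3 (chr9:66598712-66598769): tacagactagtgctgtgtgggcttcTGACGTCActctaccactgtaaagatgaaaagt
Ccl28 (chr13:119631891-119631977): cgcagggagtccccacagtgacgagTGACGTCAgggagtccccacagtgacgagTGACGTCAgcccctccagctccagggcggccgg
Anks1 (chr17:28013354-28013461): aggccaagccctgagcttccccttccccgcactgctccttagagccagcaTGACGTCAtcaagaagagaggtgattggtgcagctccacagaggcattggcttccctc
S1pr1 (chr3:115695299-115695356): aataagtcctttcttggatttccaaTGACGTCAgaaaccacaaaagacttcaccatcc
Foxp1 (chr6:99522977-99523034): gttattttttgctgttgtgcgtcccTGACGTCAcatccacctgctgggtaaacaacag

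The third set holds members at Treg genes, the intronic enhancer of Foxp3 among them.
Foxp3 (chrX:7584095-7584202): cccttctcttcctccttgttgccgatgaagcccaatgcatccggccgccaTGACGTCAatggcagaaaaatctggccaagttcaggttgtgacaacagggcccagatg
Il2ra (chr2:11653431-11653488): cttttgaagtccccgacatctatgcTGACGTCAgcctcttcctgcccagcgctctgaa
Il10 (chr1:131003530-131003587): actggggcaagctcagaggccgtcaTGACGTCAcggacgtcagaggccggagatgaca

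The last set holds members at genes known to be induced through CREB, and the member with the most CREs, of which the 2 that lie closest together are shown.
Per1 (chr11:69097177-69097234): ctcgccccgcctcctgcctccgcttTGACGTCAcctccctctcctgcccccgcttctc
Pde4d (chr13:109822572-109822629): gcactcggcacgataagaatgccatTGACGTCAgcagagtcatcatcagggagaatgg
Hic1 (chr11:75173245-75173318): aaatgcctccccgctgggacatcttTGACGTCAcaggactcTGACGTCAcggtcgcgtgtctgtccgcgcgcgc

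The CRE was the same 8 bases in each of these, and the bases beside it differed. Among the 534 members, 525 held 1 CRE, 8 held 2 and 1 held 3, which gives 544 CREs. Of these, 248 lay in introns of protein-coding genes, 205 were intergenic and 39 lay in introns of noncoding genes. A further 23 lay in coding exons, 14 in untranslated regions, 10 in noncoding exons and 5 in other exons of protein-coding genes. The median distance to a protein-coding start site was 22.5 kb (quartiles 8.22 and 53.0 kb), close to the 23.3 kb of all distal regions. By the nearest start site the members belonged to 508 genes, 25 of which had more than 1. Start sites of other gene types lay within 1 kb of 103 members. At the edge of the distance rule, the members just outside 1 kb were near Slc38a1 (1019 bp), Rcsd1 (1028 bp) and Fam131a (1034 bp), and the promoter regions just inside it near Stard4 (958 bp), Faim (860 bp) and Btg3 (776 bp). The pileups of WT and KO were 683 and 453 at Slc38a1, 177 and 82 at Rcsd1 and 85 and 46 at Fam131a, and 146 and 75 at Stard4, 146 and 110 at Faim and 358 and 258 at Btg3. The pileup is the number of sequenced fragments over the summit, the highest point of a peak, as recovered from the authors' fold and p.

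Most CREs of the mouse genome lay outside accessible chromatin in these cells. Of 14313 CREs on chromosomes 1 to 19 and X, 1197 (8.36%, 7.92 to 8.83) were in a region of either list. Near start sites 641 of 963 CREs (66.6%, 63.5 to 69.5) were accessible, and farther than 1 kb only 556 of 13350 (4.16%, 3.84 to 4.52). Some distal CREs are in regions that reach a promoter, which is why this number exceeds 544. For control palindromes made of the same bases the distal share was lower, with 1.71% (1.61 to 1.82) for TGAGCTCA and 1.84% (1.39 to 2.44) for TAGCGCTA. Repeats marked by lower case in the genome held 23.3% of all distal CREs but 3.49% of those in members. Outside such repeats the distal shares were 5.24% (4.83 to 5.69) for the CRE, 1.88% for TGAGCTCA and 2.01% for TAGCGCTA. The base next to the CRE went with this share. With a G directly 5′ of the CRE on both strands, 7.43% (5.78 to 9.51) of CREs were accessible, with a G on 1 strand 6.52% (5.77 to 7.34), and with none 4.09% (3.61 to 4.64). The level in KO relative to WT, described further below, had medians of -0.07, -0.11 and -0.12 on the log2 scale in these groups, which lie close together.

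Members were strong and long for distal regions, but so were distal regions that hold other words. Their median length was 449 bp, against 216 bp in distal regions without a CRE, and their median GC content 49.2% against 47.8%. The median pileup in WT was 157 fragments, or 18.6 times the genome background of 8.44, with quartiles of 71.0 and 416 and a range from 23 to 1992. In KO it was 108 fragments, or 21.2 times the lower genome background of 5.09. Distal regions without a CRE had median pileups of 76.0 and 58.0 (9.0 and 11.4 times background). Those among them with the control palindrome TGAGCTCA had a median length of 421 bp and a median WT pileup of 127. With the shorter word TGACG these were 427 bp and 138, and with TAGCGCTA, in 45 regions, 521 bp and 150. Length and strength were thus not particular to regions with a CRE. The WT list was 1.66 times as deep as the KO list by these backgrounds. The strongest members, near Zfp869 (1992 in WT and 1301 in KO) and Zfp958 (1914 and 1160), had their CREs 539 and 477 bp from the summit. At the strong member in an intron of Pde4d, a cAMP phosphodiesterase that limits cAMP signals, with 1378 and 893 fragments, the CRE was 15 bp from the summit.

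CREs lay near the summits of their peaks, and most often a little beside them. The median distance from the centre of the CRE to the nearest WT summit was 35.0 bp over 534 CREs in regions with a WT peak (quartiles 22.0 and 108). Within 50 bp of a WT summit were 59.9% (55.7 to 64.0) of these CREs, against 33.6% (30.8 to 36.5) of 1054 TGAGCTCA words and 36.4% (23.8 to 51.1) of 44 TAGCGCTA words in distal regions. The excess was narrow. Between 20 and 39 bp from a WT summit lay 35.2% (31.3 to 39.3) of CREs against 13.2% (11.3 to 15.4) of TGAGCTCA words, and the step from 20 to 29 bp alone held 24.2%. Nearer than 20 bp were 20.4% (17.2 to 24.0) of CREs and 14% (12.1 to 16.3) of TGAGCTCA words.

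**Figure D1:**
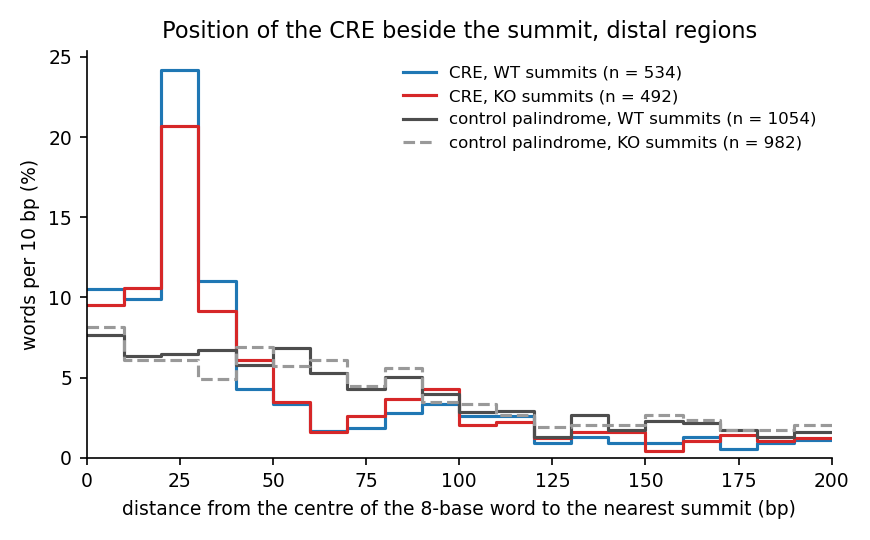
Distance in bp from the centre of the CRE or of the control palindrome TGAGCTCA to the nearest summit (horizontal axis), as the percentage of words per 10 bp in distal regions (vertical axis), for WT and KO summits. The CRE peaks at 20 to 29 bp with 24.2% for WT and 20.7% for KO, and the control palindrome stays near 6% there.

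The same position was seen in KO Tregs. In the KO list 29.9% (26 to 34.1) of 492 CREs lay 20 to 39 bp from a summit, against 11% of TGAGCTCA words, and 56.5% (52.1 to 60.8) lay within 50 bp. Among 482 CREs in shared members, 188 were nearer to the KO summit, 178 nearer to the WT summit and 116 equally far from both. CREs of promoter regions had a like distribution, with 55.7% (51.8 to 59.4) within 50 bp of a WT summit. There the control palindrome reached only 18.1% (14.1 to 22.8).

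Most members were called in both groups. A WT and a KO peak were present in 472 of 534 (88.4%, 85.4 to 90.8), a WT peak alone in 52 (9.74%, 7.50 to 12.5) and a KO peak alone in 10 (1.87%, 1.02 to 3.41). Over all distal regions 17.1% were in the WT list only and 6.45% in the KO list only. Distal regions with the control palindrome TGAGCTCA but no CRE, whose median length of 421 bp and WT pileup of 127 were closer to those of the members, had shares of 8.80% and 1.82%. The share of WT-only members was thus near that of regions with this control palindrome.

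The member in the WT list only with the highest pileup was at Per1, a clock gene and classical CREB target. It spans chr11:69097165-69097312, lay 1.73 kb from the start site and had 343 fragments in WT, with its CRE 13 bp from the summit. A KO peak of 253 fragments lay 323 bp away, and the next WT peak had 526. The member at Pde4b, another cAMP phosphodiesterase, had 109 fragments in WT, with a KO peak of 177 fragments 386 bp away. The members at Stk17b, a kinase linked to apoptosis (150 fragments), and Zscan2 (132) also had KO peaks within 500 bp. For Slain1 (171 fragments) the nearest KO peak was 725 bp away. In all, 14 of the 52 WT-only members had a KO peak within 500 bp, and the other 38 had a median of 33.0 fragments. These 38 were thus mostly weak by pileup, and 4 of the 5 WT-only members with the highest pileup stood beside a KO peak. By the -log10 p of the peak the order differed. These 5 had 9.54 to 19.7, and some members farther from a KO peak had more. Examples were 35.2 near Slc7a13 (65 fragments, 16234 bp from a KO peak) and 34.3 near Ttc34 (64 fragments, 801 bp). The 10 KO-only members had 20 to 61 fragments, the highest near Plac8 (61), with the next near Slc25a12 (32), Zfp706 (29), Nedd4l (25) and Proser2 (24). For 3 of the 10 a WT peak lay within 500 bp.

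Of the shared members, 471 had pileups recovered in both lists and could be compared by level. The member near Dad1, with 1610 and 927 fragments, was left out because its recovery missed the tolerance. Each pileup was divided by the genome background of its list, and the log2 ratio of KO to WT was set relative to the median of all shared regions, 0.15. This is called the relative log2 ratio. It takes the bulk of regions as unchanged, and each ratio would be 0.15 higher without the shift.

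Distal regions with a CRE had a slightly lower ratio of KO to WT than other regions. Their median relative log2 ratio was -0.11, or 0.927-fold, with quartiles of -0.36 and 0.08. Without the shift this median was 0.04, so that the members were low relative to other regions and not in absolute ratio. The ratio was negative in 302 of 471 members (64.1%), against 51.1% of distal regions without a CRE, whose median was 0.00. Among the latter, it was negative in 60.6% of those with TGACG and 57.8% of those with TGAGCTCA, both nearer to the members. The 95% interval of the ratio lay below 0 in 123 members (26.1%) and above 0 in 37 (7.86%), where 8.23% and 5.26% of all shared distal regions did so. Promoter regions with a CRE had a median of -0.01 and intervals below 0 in 17.8%. Without the shift 55 members (11.7%) had an interval below 0 against 3.11% of shared distal regions, and 94 of 471 had one above 0 against 14.7%. With the background of each peak in place of that of the genome, the median was -0.05 and 65 members (13.8%) had an interval below 0, against 4.55% of shared distal regions.

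**Figure D2:**
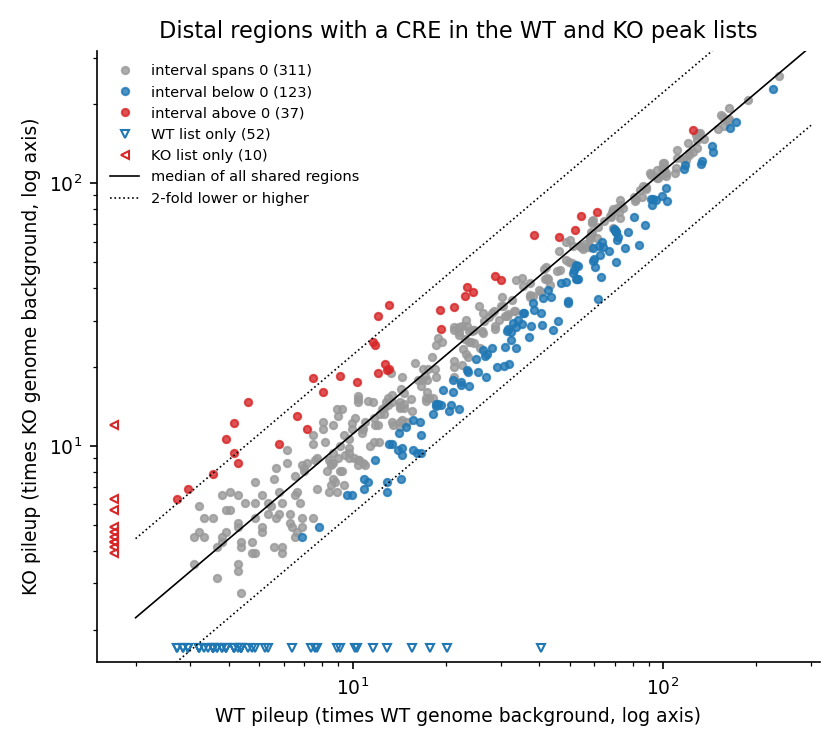
WT pileup (horizontal) against KO pileup (vertical) of each member, both as multiples of the genome background of the list on log axes, with colours for the 123 members whose 95% interval of the ratio is below 0, the 37 above 0 and the others. Members in 1 list only stand at the edges (52 WT, 10 KO), the solid line is the median ratio of all shared regions and the dotted lines mark 2-fold differences from it, which only a few members pass.

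Large differences were rare. A region was called lower or higher in KO when its relative ratio was at least 2-fold and 5 counting SDs from 0. By this rule 0 of 471 members were lower and 3 were higher, where 0.115% and 0.0967% of shared distal regions were. With the peak nearest to the CRE in place of the highest, 8 were lower and 6 higher. The 3 higher members are described below as single regions.

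Words other than the full CRE went with smaller shifts. Distal regions with the half-site TGACG but no full CRE had a median of -0.07 and intervals below 0 in 16.9% of 9970 shared regions. Regions with the control palindrome TGAGCTCA, had -0.05 and 13.9% of 935. A longer or deeper region can show a small difference more easily, and so the regions were also compared within steps of WT pileup. From 121 to 250 fragments 34 of 103 members (33.0%) had intervals below 0, with a median of -0.17. In this step it was 18% and -0.08 for TGACG without a CRE, 17.2% and -0.09 for TGAGCTCA, and 11% and -0.03 for all distal regions without a CRE. The 40 promoter regions with a CRE in this step were as low as the members or lower, with 37.5% and -0.29. From 251 to 500 fragments 40.4% of 89 members had intervals below 0 and the median was -0.17, against 23.2% and -0.08 for TGACG, 18.3% and -0.04 for TGAGCTCA, 15.6% and -0.04 for distal regions without a CRE and 25% and -0.05 for promoter regions with one. Above 500 fragments the sets lay closer together. The share was 37.9% of 103 members, 33.6% with TGACG, 28.2% with TGAGCTCA and 26.2% without a CRE, and the medians were -0.07, -0.09, -0.07 and -0.07. Promoter regions with a CRE, most of which were this strong, had 14.4% and 0.00 there. Members above 500 fragments thus had the same median as distal regions without a CRE. Up to 60 fragments the medians were 0.06 in members and 0.09 in distal regions without a CRE, and 1.33% of 75 members had an interval below 0. In these weakest members intervals above 0 were more frequent, at 14.7% (11 members) against 5.03% of distal regions without a CRE, and from 61 to 120 fragments at 11.9% (12 of 101) against 5.11%.

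**Figure D3:**
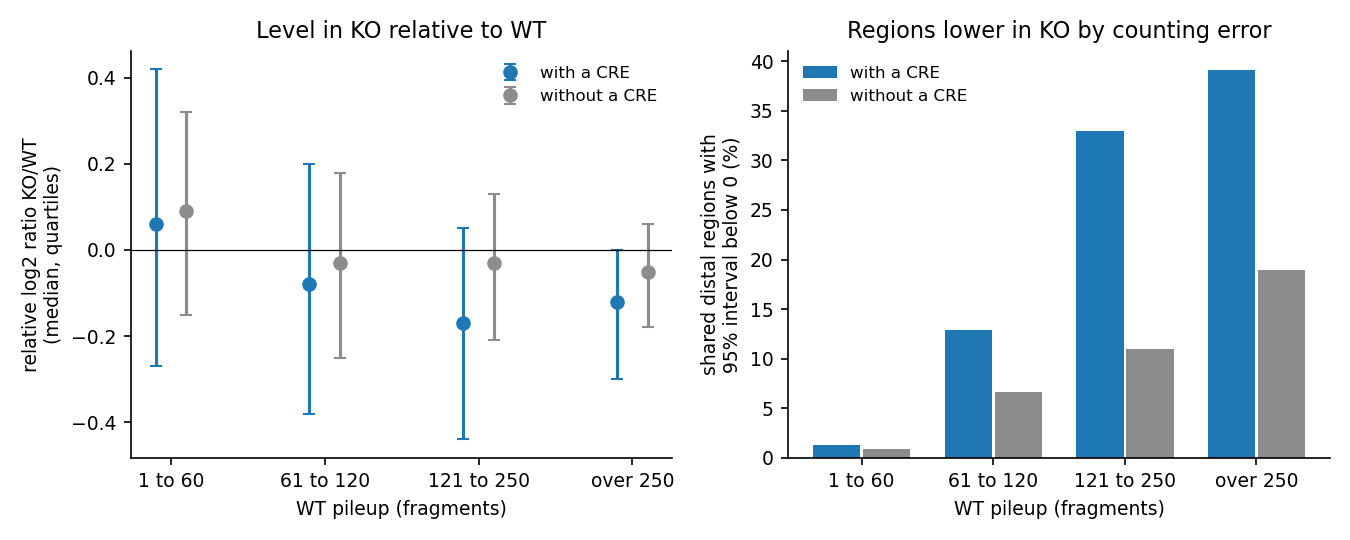
Left, the median relative log2 ratio of KO to WT (points, bars from the lower to the upper quartile) and right, the percentage of shared distal regions whose 95% interval is below 0, both by WT pileup in fragments, for regions with and without a CRE. The median of the members lies lower in every step, with -0.17 against -0.03 and 33.0% against 11% at 121 to 250 fragments. Above 500 fragments, a part of the last step, both medians were -0.07. Without the shift to the median of all regions each ratio is 0.15 higher.

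Members had lower medians than distal regions without a CRE at every GC content, length and distance compared. These sets were not matched for WT pileup, whose median was 157 in members and 76.0 in distal regions without a CRE. By GC content the medians were -0.02 in members and 0.02 in other distal regions up to 45%, -0.10 and -0.03 from 45 to 50%, -0.17 and -0.03 from 50 to 55%, and -0.11 and 0.00 above. Short members of 84 to 300 bp had -0.11 against 0.02. By distance, the medians were -0.09 within 10 kb of a start site, -0.11 from 10 to 50 kb and -0.14 farther away, with overlapping quartiles, and -0.01 to 0.00 in the other distal regions. The 9 members with a CRE in a noncoding exon had a median of -0.25 and 6 intervals below 0, and the 21 with a CRE in a coding exon -0.03 and 2. These were the lowest and highest medians by place, in small sets not matched for WT pileup or compared with regions without a CRE.

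The relative level in KO was lower in members with the CRE close to the summit than in the others, except among weak members. Members with the CRE within 50 bp of the WT summit had a median of -0.15 (n = 274) and intervals below 0 in 31.8%, and those with the CRE farther away -0.06 (n = 197) and 18.3%. Among members above 120 fragments these were -0.19 (n = 165) and 44.8% against -0.06 (n = 130) and 26.9%. Up to 120 fragments the medians were 0.02 (n = 109) within 50 bp and -0.03 (n = 67) farther away, with intervals below 0 in 11.9% and 1.49% and above 0 in 15.6% and 8.96%. For TGAGCTCA in distal regions the order was the opposite, with -0.04 and 11.1% within 50 bp and -0.06 and 15.1% farther away. In members whose CRE was 100 bp or more from the summit the median was -0.02 (n = 135), and in those at 20 to 39 bp it was -0.16 (n = 161). Promoter regions showed a smaller difference of the same kind, with -0.04 within 50 bp and 0.00 beyond.

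**Figure D4:**
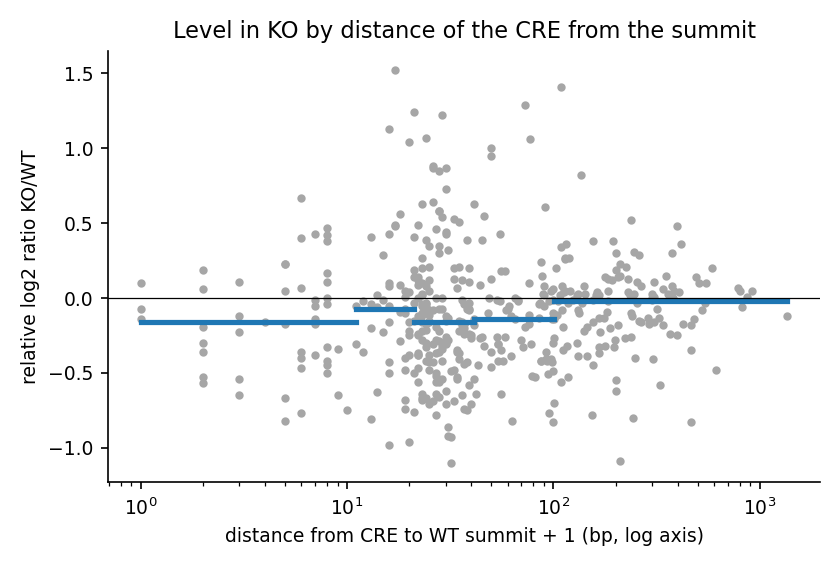
Relative log2 ratio of KO to WT of each shared member (points) against the distance from its CRE to the WT summit plus 1, in bp on a log axis. Bars are medians over the steps 0 to 9, 10 to 19, 20 to 39, 40 to 99 and 100 or more bp, at -0.16, -0.07, -0.16, -0.14 and -0.02, and the points spread widely around them. Without the shift each value is 0.15 higher.

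The 3 members called higher in KO lay over 35 kb from the nearest protein-coding start site. Il1rl1 encodes the IL-33 receptor ST2, a marker of tissue Tregs, and the member at chr1:40393182-40393582 is intergenic, 36.2 kb upstream of its start site. Its pileup was 39 in WT and 75 in KO, which are 4.62 and 14.7 times background, and the relative log2 ratio was 1.52 (0.95 to 2.12). It is a weak region in WT with 1 CRE 16 bp from the WT summit, and the highest KO peak had its summit 101 bp from that CRE. A second member at Il1rl1, in an intron at chr1:40437094-40437561, went the other way with 50 and 20 fragments and a ratio of -0.74 (-1.57 to 0.03). The intervals of these 2 members did not overlap, although that of the second reached past 0. The member at chr14:68048441-68048657, 35.3 kb upstream of the neurofilament gene Nefl and in an intron of a noncoding gene, had 102 and 159 fragments and a ratio of 1.22 (0.85 to 1.59). The member at chr4:89008555-89009190, 128 kb upstream of Mtap, an enzyme of methionine salvage, had 111 and 175 fragments and a ratio of 1.24 (0.89 to 1.59). Both had CREs close to the summit, 28 and 20 bp away. The other members among the 8 highest ratios did not pass 5 counting SDs. They were near Atp9b (35 and 62 fragments, ratio 1.41), Ssr1 (33 and 54, 1.29), Hecw2 (63 and 92, 1.13), Bmpr2 (25 and 35, 1.07) and Papln (23 and 32, 1.06), all weak in WT. A low WT pileup raises the ratio by construction, since WT is its denominator.

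The 8 lowest ratios with intervals leaving out 0 were in regions stronger in WT, which the choice favours. A weak WT region that falls in KO can leave the KO list and then has no ratio. The deepest of the 8 was in an intron of Anks1 at chr17:28013218-28013711, with 523 fragments in WT and 184 in KO, a ratio of -0.93 (-1.18 to -0.68) and the CRE 31 bp from the summit. At Mapk9, the gene of the kinase JNK2, the member at chr11:49837695-49838197 lies in an untranslated part of the neighbour Gfpt2 and had 109 and 34 fragments and a ratio of -1.10 (-1.70 to -0.53). The member nearest to Ncf1, a subunit of the phagocyte NADPH oxidase, lies in an intron of Gtf2i and had 121 and 38 fragments and a ratio of -1.09 (-1.66 to -0.55). Its CRE was 209 bp from the summit, so not all low members had the CRE at their centre. Near Usp3, a histone deubiquitinase, the values were 109 and 37 with a ratio of -0.98 (-1.56 to -0.43). The member in an intron of the chemokine gene Ccl28 holds 2 CREs inside a short repeated stretch, as its sequence above shows, and had 140 and 48 fragments and a ratio of -0.96 (-1.47 to -0.48). Near Slc2a7, in an intron of Slc2a5, 133 and 49 fragments gave -0.86 (-1.36 to -0.38), and at Gramd3 136 and 48 gave -0.92 (-1.43 to -0.44). None of the 8 lowest ratios, S1pr1 included, passed both 2-fold and 5 counting SDs.

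**Figure D5:**
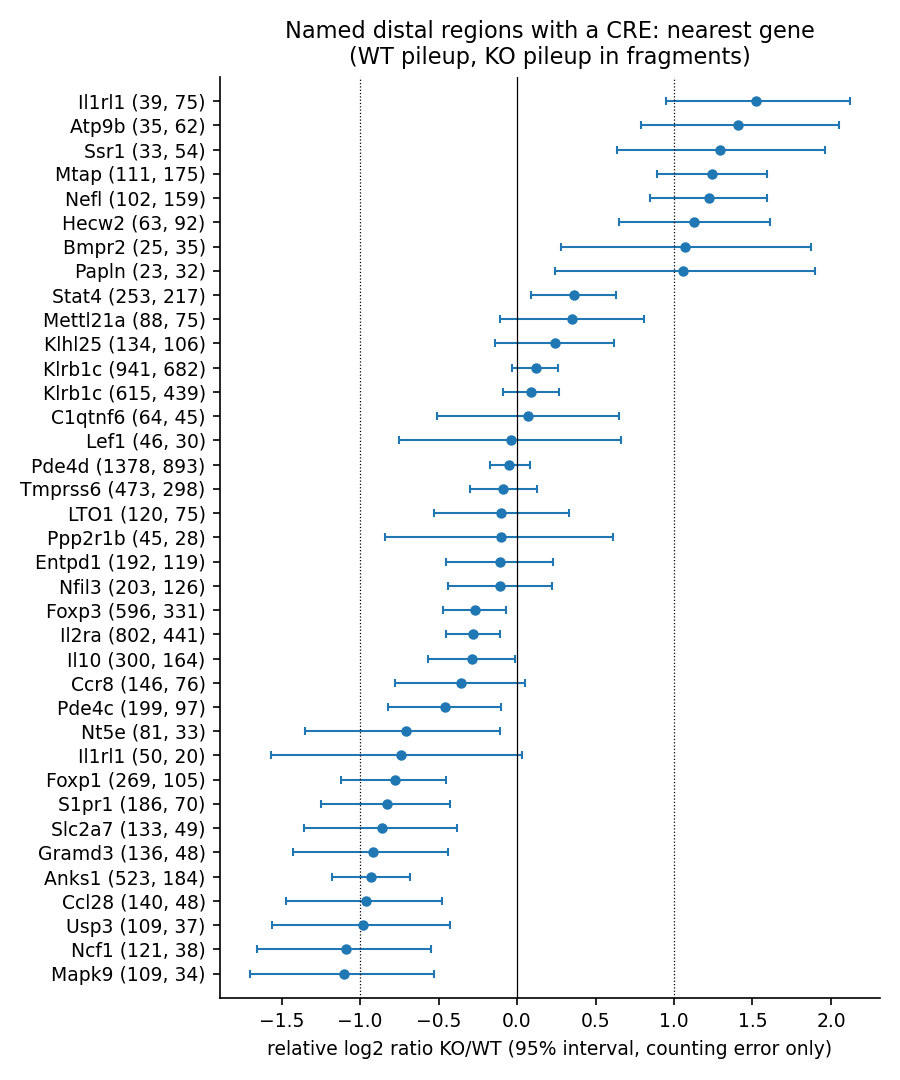
Relative log2 ratio of KO to WT with its 95% interval (counting error only) for the members with the lowest and highest ratios and those of the gene lists, named by the nearest gene, with the WT and KO pileups in fragments in brackets. Dotted lines mark 2-fold differences. Ratios run from -1.10 near Mapk9 to 1.52 near Il1rl1, and weak regions have the widest intervals. Without the shift each ratio is 0.15 higher.

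Genes of Treg identity had 7 members within 50 kb, at 5 of 24 listed genes. Of these, 6 were shared, with a median ratio of -0.19 and 3 intervals below 0, and 12.9% of 568 shared distal regions around the listed genes had such intervals. The intronic enhancer of Foxp3 at chrX:7583734-7584422 had 596 fragments in WT and 331 in KO and a ratio of -0.27 (-0.47 to -0.07), with the CRE 100 bp from the summit in both lists. In an intron of Il2ra, the high-affinity IL-2 receptor chain, the member had 802 and 441 fragments and a ratio of -0.28 (-0.45 to -0.11). Near Nt5e, which encodes the ectonucleotidase CD73, 81 and 33 fragments gave -0.71 (-1.35 to -0.11). In Entpd1, the gene of the ectonucleotidase CD39, 192 and 119 fragments gave -0.11 (-0.45 to 0.23), and 2 members near Il2rb had -0.09 and 0.07, so these intervals included 0. The Foxp3 and Il2ra differences were under 2-fold, and without the shift of 0.15 the intervals at Foxp3, Il2ra and Nt5e would include 0.

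Of 18 genes of ST2+ tissue Tregs, 4 had 5 members, with a median of -0.29. Besides the pair at Il1rl1, these were 16.3 kb upstream of Il10, the gene of an inhibitory cytokine (300 and 164 fragments, ratio -0.29, -0.57 to -0.01), at the chemokine receptor gene Ccr8 (146 and 76, -0.36, -0.78 to 0.05) and at the transcription factor gene Nfil3 (203 and 126, -0.11, -0.44 to 0.22). All but the far Il1rl1 region thus had ratios below 0, and of these only the interval at Il10 left out 0. Around the listed genes 10.2% of 275 shared distal regions had intervals below 0 and 9.09% above, with a median of -0.01. Without the shift the Il10 interval would include it.

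Classical CREB target genes had 6 members at 6 of 24 genes, 3 of them in the WT list only. Of all members 9.74% and of all distal regions 17.1% were in the WT list only, and 6 members are few for a share. The 3 were at Per1 and Pde4b, which had KO peaks within 500 bp as described above, and near Dusp1, a phosphatase of MAP kinases (31 fragments). The 3 shared ones had ratios near 0. At Pde4d the ratio was -0.05 (-0.17 to 0.08), near the cell cycle gene Ccnd1 -0.10 (120 and 75 fragments) and at Nfil3 -0.11. Around the listed genes 14.9% of 329 shared distal regions had intervals below 0. Of 27 genes of the cAMP pathway, 4 had a member, and none of the 3 with a ratio had an interval that left out 0, the largest value being 0.24 (-0.14 to 0.62) in Akap13, a kinase anchor. Of 459 shared distal regions around the cAMP genes, 9.59% had intervals below 0. Of 27 genes of the CREB, ATF and AP-1 families, 2 had a member, and 8.87% of 248 shared distal regions around these genes had intervals below 0. Near Creb1, the deleted gene, a member in an intron of Mettl21a had 88 and 75 fragments and a ratio of 0.35 (-0.11 to 0.81), and near Jund a member in Pde4c had 199 and 97 fragments and -0.46 (-0.82 to -0.10), though not below 0 throughout once the shift is left out.

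Genes of naive and central T cells had 3 members at 3 of 10 genes. Near S1pr1, the receptor by which T cells leave lymph nodes, 186 fragments in WT and 70 in KO gave -0.83 (-1.25 to -0.43). Near Foxp1, a factor that maintains quiescence, 269 and 105 gave -0.78 (-1.12 to -0.45). Both intervals lie below 0 with or without the shift. In Lef1, a factor of the Wnt pathway, 46 and 30 gave -0.04 (-0.75 to 0.66). Shared distal regions around these genes had a median of -0.19 and intervals below 0 in 20.7% of 392, so that low ratios there were not particular to regions with a CRE. Of 18 genes of Th2, Th1 and Th17 cells, Stat4 alone had a member, with 253 and 217 fragments and a ratio of 0.36 (0.09 to 0.63), higher in KO with or without the shift. Intervals above 0 were found in 5.61% of 214 shared distal regions around these 18 genes. No member lay near the listed myeloid or erythroid markers. Of the CD8 and NK cell markers, Klrb1c had 2, with 941 and 682 and with 615 and 439 fragments and ratios of 0.12 (-0.03 to 0.26) and 0.09 (-0.09 to 0.27).

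Members with several CREs differed widely in the size of their ratio, and none was clearly higher in KO. The member near Hic1, with 3 CREs, had 499 and 330 fragments and a ratio of -0.02 (-0.22 to 0.19). The one 89.1 kb downstream of Cebpb, with 2 CREs, had 1132 and 623 and -0.28 (-0.42 to -0.14), and at Gfod1, with a CRE at the summit itself in both lists, 1022 and 650 gave -0.07 (-0.22 to 0.07). With Ccl28 at -0.96, the 9 members with more than 1 CRE spanned from that value to 0.02 near Ppp2r3d.

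AP-1 is a family of related leucine zipper factors whose words, TGAGTCA and TGACTCA, resemble the CRE but lack its central base pair. An AP-1 word was present in 87 members (16.3%, 13.4 to 19.7) and in 11.8% of all distal regions. At equal length the shares were nearer, with 11% against 8.24% at 84 to 300 bp, 16.1% against 15% at 301 to 600 bp and 21.8% against 23.1% above. Members with an AP-1 word had a median ratio of -0.07 (n = 83) and those without one -0.13 (n = 388). Distal regions without a CRE had 0.05 with an AP-1 word and -0.02 without. In the 36 members with an AP-1 word within 100 bp of the CRE the median was -0.03, with 5 intervals below 0 and 7 above, against -0.12 with 118 and 30 in the other 435. A further half-site TGACG within 100 bp was found in 64 members, of which 25 (39.1%) had intervals below 0, against 24.1% of 407 without one, although the medians, -0.09 and -0.11, were close.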

How the data were processed

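ATAC-seq peaks of splenic Tregs from 3 WT and 3 KO libraries were used as 1 deposited list per group (100771 and 94499 peaks). Paired reads of 75 bp went through Trim Galore, Bowtie2, SAMtools and MACS2, run by the authors with no local background. Tool versions and the way libraries were joined: not given in the sources used here. The deposited lists hold MACS2's peak score (not used), the fold (the authors' ratio of summit pileup to background), p-values as -log10 and the summit. From fold and p, whole-number pileups were recovered for 99.94% and 99.97% of peaks, with a tolerance of 0.002 in -log10 p. Although a local background was stated as off, only 32.6% and 29.6% of peaks had the genome background.

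Positions were read as GRCm38, although the labels name mm9: 59.2% of 41219 start sites (GENCODE vM21, basic transcripts of protein-coding genes) had a WT peak within 1 kb, against 13.3% after a shift by 100 kb. Sequences are from the GRCm38 reference assembly of RefSeq. Words were exact matches on both strands. Lists were joined by an overlap of at least 1 bp, and the highest peak of each list represents a region. The ratio has an exact conditional binomial 95% interval and shares have Wilson intervals, for counting error only. PCR duplicates were removed by the authors, but fragments are not independent mice. With 1 list per group no p-value is given. Equal handling of fragments in both lists was assumed.

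The members and gene lists were chosen with earlier results of these data known. Named are members past 2-fold and 5 counting SDs, the 8 lowest and 8 highest ratios with intervals leaving out 0, the 8 highest WT pileups, the 5 highest in each list only, up to 5 with the most CREs, up to 4 per gene list (gene with 50 kb on each side) and the 3 on either side of the 1 kb limit. Scripts used Python 3.11.15, numpy 2.4.6, pandas 2.3.3 and scipy 1.17.1 and were tested on simulated pileups.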

Additional observations from a re-analysis of the deposited data

How the results depend on the processing

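Over 12 alternatives, the median ratio ranged from -0.16 to -0.04 where the shift was kept and was 0.04 without it. Of all values recomputed, 86 stayed within the error of the main value or, for counts of regions, within a fixed factor of the main count. For medians this error was the spread over members, which says nothing about mice. The other 16 moved by more. An overlap of 50% of both peaks gave shares of 80.5% in both lists, 17.6% in the WT list only and 9.74% in the KO list only. With CREs within 50 bp of a summit only, 84.6% were in both lists and 12.8% in the WT list only, and the median ratio was -0.16. Without the shift 7 members were called higher, 55 had intervals below 0 and 94 above. With the peak nearest to the CRE in place of the highest, 8 were called lower and 6 higher, so the count of 0 lower members depends on that choice. With the background of each peak the median was -0.05 and 65 members (13.8%) had intervals below 0, against 4.55% of all shared distal regions, and by the authors' fold the median was -0.04. With pileups of at least 30 in both lists 55.3% of CREs lay within 50 bp of a summit. The cause of these changes was not tested. Start sites of all transcripts and the interval counts were alternatives chosen after seeing the data. No paired analysis was possible because there is 1 list per group, and leaving out a library could not be run for the same reason. Depth limits weak members: up to 60 WT fragments, 12 of 75 intervals left out 0.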

Other observations

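Among genes with several members, Vgll4, a cofactor of TEAD transcription factors, had the most. Its 3 members lay 27.8, 38.4 and 133 kb downstream of its start site, and the gene was chosen after its values were seen. From the nearest to the farthest, the WT and KO pileups were 315 and 192, 154 and 67, and 88 and 45 fragments. The relative log2 ratios were -0.13 (-0.40 to 0.13), -0.62 (-1.06 to -0.20) and -0.39 (-0.94 to 0.15), all below 0, and only the middle interval left out 0. Over all members 64.1% of ratios were negative and 26.1% of intervals lay below 0, so 3 members are too few to set this gene apart.

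Words of other factors near the CRE were compared with those near the control palindrome. Within 100 bp of 544 CREs in members, the RUNX word TGTGGT was found at 18.4% (15.4 to 21.9), against 20.9% (18.5 to 23.4) for 1074 TGAGCTCA words in distal regions. An ETS word (CAGGAAGT or CCGGAAGT) was found at 6.07% (4.35 to 8.40) and 5.96% (4.69 to 7.54), and an AP-1 word at 7.90% (5.92 to 10.5) and 9.12% (7.55 to 11), so that the intervals of these 3 words overlapped. NRF1 words were rare at both, with 8 near CREs (1.47%, 0.747 to 2.87) and 3 near the control palindrome (0.279%, 0.0950 to 0.818), and CTCF words were found at 2 (0.368%, 0.101 to 1.33) and 14 (1.30%, 0.778 to 2.18). For NRF1 and for CTCF the intervals overlapped as well. Members with a RUNX word near the CRE had a median ratio of -0.14 (n = 90) and the others -0.10 (n = 381).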
